A study of Gallus gallus with 3 samples.

Results

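A set of 9 Notch pathway genes was followed through the libraries of a type I hair cell, a type II hair cell and the whole vestibular crista of the chicken embryo. The genes were taken by symbol from a list of 10 genes, of which 9 are named among the 30108 genes of the deposited files, and they comprise the receptors *NOTCH1* and *NOTCH2*, the ligands *JAG1*, *JAG2*, *DLL1* and *DLL4*, the receptor-modifying enzyme gene *LFNG* and the target genes *HEY1* and *HEY2*. The symbol *HES5* names no gene in the files, which name *HES5A* and *HES5B* instead. The type I hair cell came from an E20 embryo and the type II hair cell from an E19 embryo. Each was identified by whole-cell recording in situ from its K+ currents, and the cytoplasm was then drawn into the same pipette. The whole-crista library was made from ampullary cristae pooled from several E16 embryos of either sex, so that it holds hair cells, supporting cells, nerve, vessels and connective tissue together. No treatment or genotype separates the groups, and all embryos came from Isa Brown eggs. There was 1 library of each kind, with no replicate, so no test between libraries was possible.

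Notch signalling passes between touching cells. A ligand of the Jagged or Delta family on 1 cell binds a Notch receptor on its neighbour, the receptor is cut by ADAM10 and then by γ-secretase, and the freed intracellular part joins RBPJ in the nucleus, where genes of the HES and HEY families of transcriptional repressors are switched on. In the developing inner ear this exchange is known for sorting the cells of a sensory patch. In the mouse, nascent hair cells carry *Dll1* and *Jag2*, while the surrounding supporting cells carry *Notch1*, *Jag1*, *Lfng* and *Hes5*.

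The libraries summed to 10779664 (type I), 11943061 (type II) and 67428006 (whole crista) estimated reads, and 1 estimated read was enough to call a gene detected. By that rule 7.77% of all genes were detected in the type I cell, 7.91% in the type II cell and 59.8% in the whole crista. Levels are given in TPM (transcripts corrected for length and scaled to the library), with 95% intervals from the exact Poisson limits of the rounded reads, which cover counting error only. Both hair cell libraries held nearly the same genes, since the 1975 genes detected in both made up 84.4% of the type I set and 82.9% of the type II set. Of 14 hair cell markers, 6 had a read in the type I cell and 5 in the type II cell. *OCM1* led at 29368 and 23580 TPM against 3289 TPM in the organ. *MYO6* was lower in the cells, at 37.2 and 45.7 TPM against 159 TPM, as was *LOXHD1* at 0.890 and 0.445 against 2.68 TPM. *CIB3* had 88.7 and 64.7 TPM against 76.8 TPM, and *TMC1* 14.5 and 4.90 against 7.90 TPM. *OTOF* had 2 reads in the type I cell alone, against 47.6 TPM in the organ. *MYO7A*, *POU4F3* and *GFI1* had none in either cell. Of 12 supporting cell markers, 4 (*COCH*, *GJB6*, *SLC1A3* and *ZPLD1*) were detected in each hair cell, with a summed level of 1392 TPM (type I) and 1643 TPM (type II) against 16050 TPM in the whole crista, while *SOX2*, *OTOG* and *TECTA* were at 0. The paper lists a *Sox2* transcript in both cells, a difference that was not resolved here. Of 7 mesenchyme markers, 3 were detected in each cell, with *COL1A1* at 397 and 307 TPM against 356 TPM in the organ, and *COL3A1* was at 0 in both cells. Of 6 glial markers, 2 were detected in each, with *SOX10* at 70.8 and 86.7 TPM against 52.9 TPM in the organ. The summed levels were 482 and 371 TPM (mesenchyme) and 73.7 and 89.4 TPM (glia), against 2740 and 1948 TPM in the organ. The part of these markers in the results below was not tested. Because genes used to define hair cells were themselves without a read, a count of 0 here sets no limit on the transcript present before amplification.

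*JAG2* was the abundant member in both hair cells, and the only other read of a member was a single one of *LFNG* in the type I cell. Of the 9 members, 2 were detected in the type I cell and 1 in the type II cell, against the 7.77% and 7.91% of all genes given above. In the whole crista all 9 were detected. Of the members 77.8% had no read in either hair cell, against 85.8% of all genes with a read in the whole crista. The median of the 9 members was 0 reads in either hair cell, as was the median of all genes in either, and 34.0 TPM in the whole crista, where the median of all genes was 0.443 TPM. The summed level of the members was 513.6 TPM in the type I cell, 709 TPM in the type II cell and 294 TPM in the whole crista. *JAG2* made up 99.99% of that sum in the type I cell, 100% in the type II cell and 13.4% in the whole crista.

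**Figure D1:**
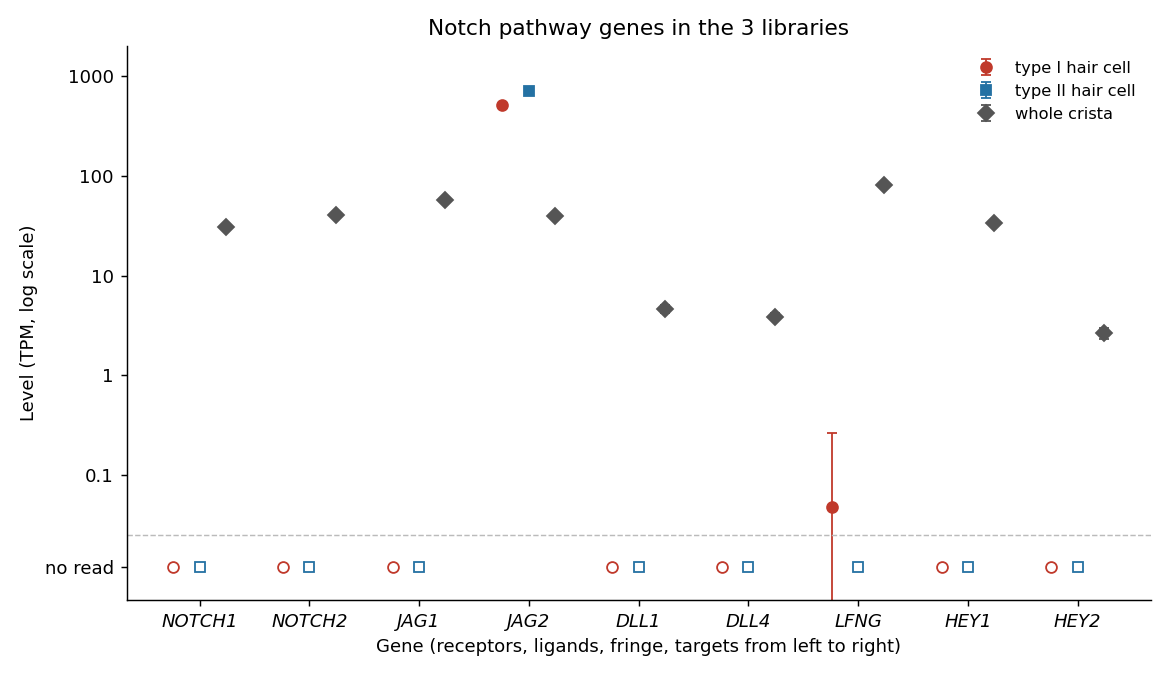
Level of each of the 9 Notch pathway genes in TPM (log scale) in the type I cell (circles), the type II cell (squares) and the whole crista (diamonds), with 95% counting intervals where they exceed the symbol; open symbols under the dashed line had no read. *JAG2* stands at 514 and 709 TPM in the hair cells and 39.3 TPM in the whole crista, and *LFNG* is the other gene with a read in a hair cell, a single one whose interval runs below the axis.

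*JAG2* (ENSGALG00010019830, chromosome 5, 51624172 to 51685871 in the RefSeq annotation of GRCg7b) encodes Jagged 2, a membrane-bound ligand. It had 16692 reads in the type I cell (95% interval 16440 to 16947), 24141 in the type II cell (23837 to 24448) and 6365 in the much deeper library of the whole crista (6210 to 6523). These correspond to 514 TPM (506 to 521), 709 TPM (699.9 to 718) and 39.3 TPM (38.3 to 40.2), so that both hair cells lay above the organ. By TPM the gene took place 371 of the 2340 genes detected in the type I cell and place 292 of the 2381 of the type II cell, and place 4094 of 18001 in the whole crista. It overlaps a long non-coding RNA gene at one end of its span in that annotation, and whether reads were counted by strand is not given in the sources used here.

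The TPM of *JAG2* was 13.1-fold that of the whole crista in the type I cell (counting interval 12.7 to 13.5) and 18.1-fold in the type II cell (17.6 to 18.6). A difference of this size was not rare, as 12.2% of the genes detected in both the type I cell and the organ, and 12.4% for the type II cell, were at least 10 times higher in the cell. Over genes with at least 100 reads in both libraries, the median log2 ratio of hair cell to whole crista was 0.71 for the type I cell (1352 genes) and 0.77 for the type II cell (1309 genes), and the SD over genes was 2.84 and 2.93. Relative to these medians, the log2 ratio of *JAG2* was higher by 2.999 and 3.40, at percentile 86.7 and 89.0 of the genes. The cells were older than the organ by several days of incubation, and their libraries were made and sequenced by another protocol. Cell type, age and library preparation therefore cannot be told apart. In the organ, fewer cells of a type and less RNA per cell cannot be told apart either.

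**Figure D2:**
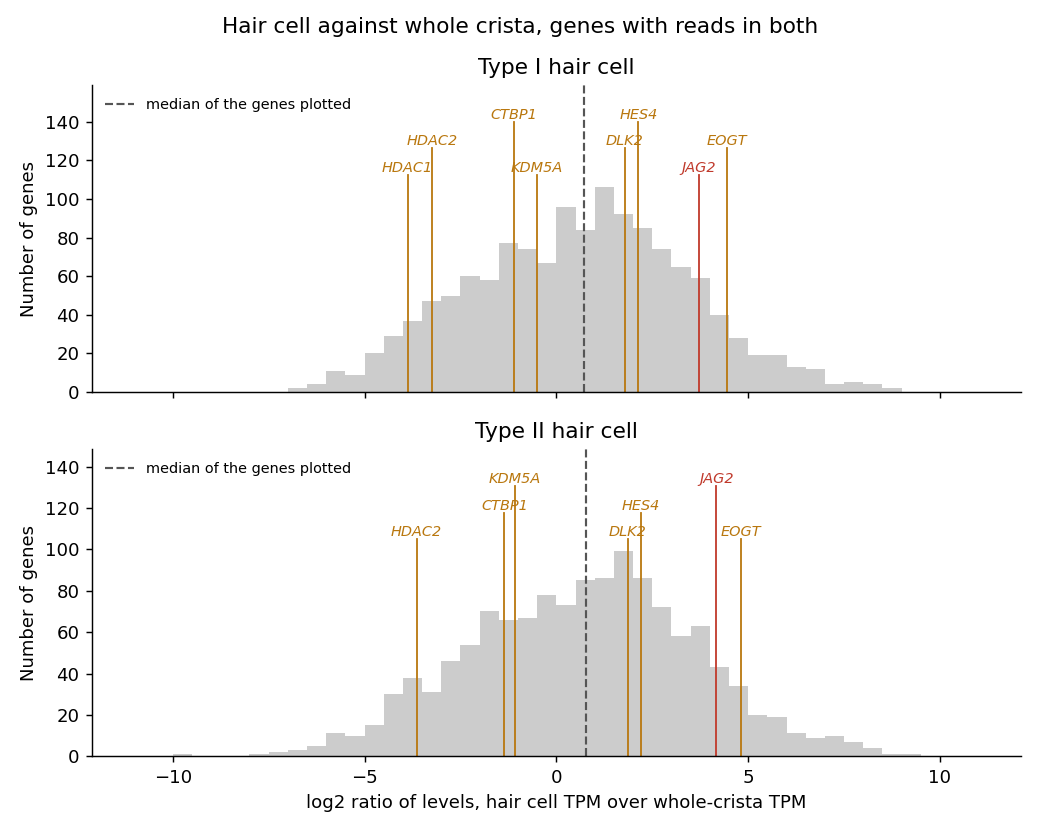
Distribution over genes of the log2 ratio of hair cell TPM to whole-crista TPM for the type I cell (top, 1352 genes) and the type II cell (bottom, 1309 genes), each gene with at least 100 reads in both libraries; the vertical axis is the number of genes, coloured lines mark named Notch pathway genes and the dashed line the median. *JAG2* lies to the right of the median in both panels, at log2 ratios of 3.71 and 4.17, next to *EOGT* at 4.45 and 4.81, and *HDAC2* lies far to the left.

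Between the hair cells, *JAG2* was lower in the type I cell, its TPM being 0.725 times that of the type II cell (counting interval 0.710 to 0.739). On the log2 scale this is -0.46, against a median of -0.06 and an SD of 0.31 over 879 genes that reached 1000 reads in each cell. Of those genes, 68 had a lower ratio than *JAG2*, and 99.2% lay within 2-fold of each other. The counting interval was narrower than the spread of ratios over genes, and with 1 cell of each type the difference has no replicate check. The libraries matched closely, and whether RNA or cDNA was shared between them was not tested. Reads of *JAG2* in the second cell are therefore not counted here as an independent repeat of those in the first.

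**Figure D3:**
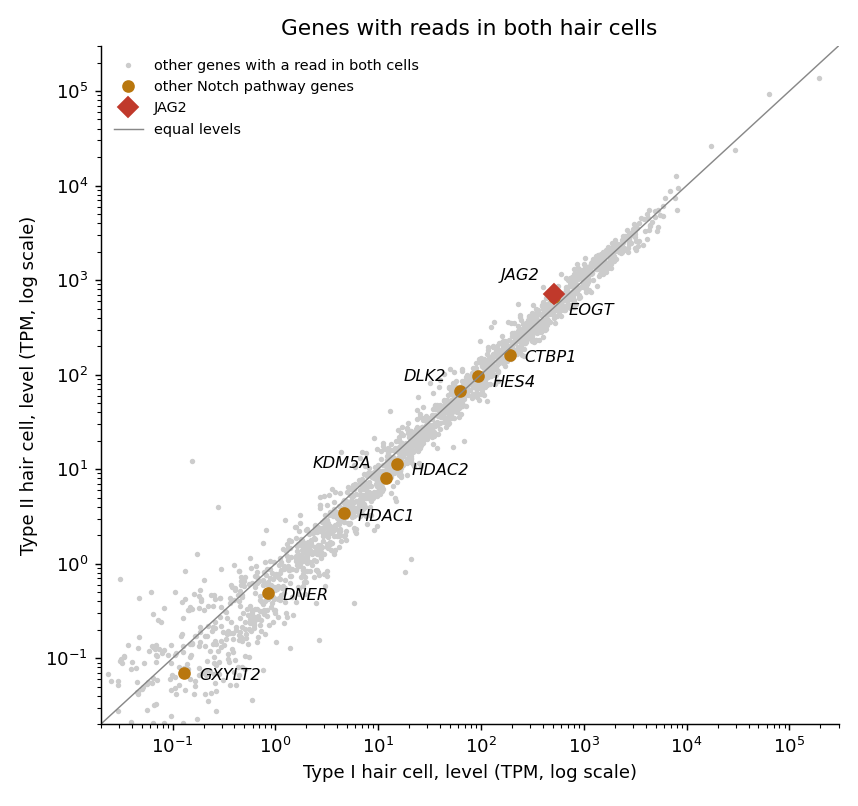
Level in the type II cell against level in the type I cell (TPM, both axes log scale) for the 1975 genes detected in both cells; the diamond is *JAG2*, filled circles are other named Notch pathway genes, grey points are all other genes and the line marks equal levels. The points form a narrow band, and *JAG2* lies slightly above the line with a type I to type II ratio of 0.725.

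No read of either receptor gene was found in the hair cells. *NOTCH1* (ENSGALG00010028107, chromosome 17, 8415416 to 8451054) had 0 reads in the type I cell and 0 in the type II cell, against 10273 reads or 30.9 TPM in the whole crista (30.3 to 31.5 TPM). *NOTCH2* (ENSGALG00010013323, chromosome 8, 4165167 to 4244193) likewise had 0 and 0, and 16761 in the organ, or 40.6 TPM (39.9 to 41.2). In the organ the receptors thus stood close to each other, *NOTCH2* at 1.31 times the TPM of *NOTCH1* (counting interval 1.28 to 1.34). With a floor of 3 reads in a hair cell, the TPM of *NOTCH2* in the whole crista was at least 1176-fold higher than in the type I cell and at least 1255-fold higher than in the type II cell, and that of *NOTCH1* at least 834-fold and at least 889.6-fold. In CPM, which scales reads to the library total without length, the bounds of *NOTCH1* were 547-fold and 607-fold. All bounds refer to the sequenced libraries alone.

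Of the ligands other than *JAG2*, none had a read in a hair cell. *JAG1* (ENSGALG00010018226, chromosome 3, 13191920 to 13227987), the second Jagged gene, had 0 reads in both cells and 11121 in the whole crista, which is 56.9 TPM (55.9 to 58.0). It was the more abundant Jagged gene of the organ, at 1.45 times the TPM of *JAG2* (counting interval 1.41 to 1.495). In the hair cell libraries only *JAG2* of these genes had reads. Whether the cells themselves held less *JAG1* than *JAG2* cannot be told from this, as hair cell markers such as *MYO7A* also went unread. The Delta genes were low. *DLL1* (ENSGALG00010007927, chromosome 3, 40510855 to 40522846), the Delta ligand of nascent hair cells in the mouse, had 0 reads in both cells and 476 in the organ, or 4.64 TPM (4.23 to 5.07). *DLL4* (ENSGALG00010022311, chromosome 5, 23929187 to 23940408), best known from sprouting vessels, had 0 reads in both cells and 622 in the organ, or 3.89 TPM (3.59 to 4.20). Together the Jagged genes reached 96.2 TPM in the whole crista and the Delta genes 8.52 TPM, a ratio of 11.3.

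Markers of vessels were present beside *DLL4* in the organ. All 10 endothelial markers, among them *CDH5*, *KDR* and *PECAM1*, were detected in the whole crista, with a summed level of 136.7 TPM. The 5 pericyte and smooth muscle markers summed to 271 TPM there and 4 erythroid markers to 30735 TPM. The part of vessels and blood in the level of *DLL4* or of any other member was not tested. In the hair cells the endothelial markers had no read in the type I cell, and in the type II cell *SOX17* had 2 reads and *SOX18* had 1. While *JAG2* overlaps the non-coding gene given above, *JAG1* and *DLL1* share part of their span with protein-coding neighbours. *JAG1* overlaps *SLX4IP*, which had 944 reads in the whole crista, and *DLL1* overlaps *FAM120B* with 3706, more than the 476 of *DLL1* itself. Neither of these neighbours had a read in the hair cells. *JAG1* also overlaps LOC112532057, whose reads were not analysed here.

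*LFNG* (ENSGALG00010020053, chromosome 14, 3230059 to 3240435) encodes Lunatic fringe, a glycosyltransferase that extends sugars on the receptor and thereby alters its response to Delta and Jagged ligands. It had 1 estimated read in the type I cell (95% interval 0.0253 to 5.57), 0 in the type II cell and 7708 in the whole crista (7537 to 7882). Its level was 0.0478 TPM in the type I cell and 80.9 TPM (79.1 to 82.7) in the organ, the highest of the 9 members there. The paper lists an *Lfng* transcript for the type I cell and not for the type II cell. In the reads used here the call in the type I cell rested on a single read, and it was lost when at least 3 reads were required. Between whole crista and type I cell the TPM ratio was 1693, with a counting interval from 304 to 66886. Nothing separates the hair cell types here, as the interval of 1 read spans the floor of 3 reads set for a count of 0.

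Of the target genes, *HEY1* (ENSGALG00010003330, chromosome 2, 120346174 to 120350024) had 0 reads in both hair cells and 1183 in the whole crista, or 34.0 TPM (32.1 to 36.0). *HEY2* (ENSGALG00010004892, chromosome 3, 59516669 to 59527603) had 0 in both cells and 232 in the organ, or 2.64 TPM (2.31 to 3.003). *HEY1* was thus 12.9 times as abundant as *HEY2* in the organ (counting interval 11.2 to 14.9), although both encode related repressors of the same subfamily. With the floor of 3 reads, the organ was at least 19.5-fold above the type I cell for *HEY2*, the scarcest member. This was the lowest of the bounds, whereas for *HEY1* the organ was at least 94.0-fold above that cell. In CPM these bounds fell to 12.4-fold and 63.1-fold. *HES5A* and *HES5B*, looked up after the symbol *HES5* had matched no gene, are named like members of the HES family and lie outside the list. *HES5B* (ENSGALG00010019700) had 0 reads in both cells and 5384 in the whole crista, or 83.7 TPM (81.4 to 85.9), above every member. *HES5A* (ENSGALG00010019724) had 2 reads in the type I cell (0.242 to 7.22), 0 in the type II cell and 2172 in the organ, or 45.2 TPM (43.4 to 47.2).

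In the whole crista the order by TPM ran from *LFNG* (80.9) through *JAG1* (56.9), *NOTCH2* (40.6), *JAG2* (39.3), *HEY1* (34.0) and *NOTCH1* (30.9) to *DLL1* (4.64), *DLL4* (3.89) and *HEY2* (2.64). The counting intervals of the neighbours *NOTCH2* and *JAG2* overlapped, and those of all other neighbours did not. By reads per kilobase of the deposited length, however, *NOTCH1* took place 5 and *HEY1* place 6, so that their order is not settled. At least 10 TPM was reached by 6 of the 9 members, against 28.4% of all genes. Without correction for length, by reads alone, *NOTCH2* came first and *LFNG* took place 4, so that the order rests on the length correction. Members without a read in either hair cell numbered 7 of 9, or 77.8%. Among all genes with at least 1 read in the whole crista the same held for 85.8%. Of the 6 members with at least 10 TPM there, 4 had no read in either cell, against 77.6% of all genes at that level. With so few members, neither share is read as a result about them.

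**Figure D4:**
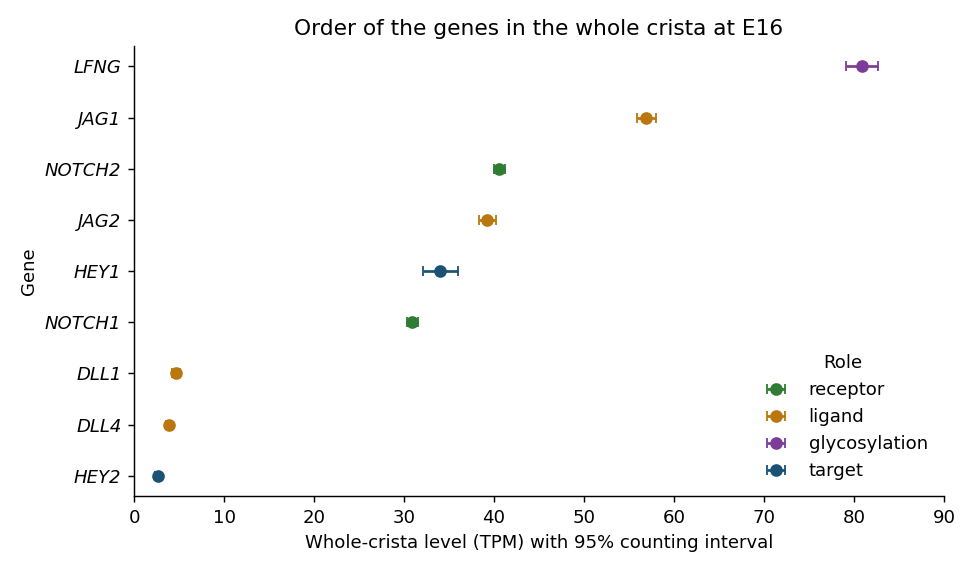
Whole-crista level at E16 in TPM (horizontal axis, linear) of the 9 Notch pathway genes in descending order, coloured by role, with 95% counting intervals from 1 library. *LFNG* leads at 80.9 TPM, 5 genes lie between 30.9 and 56.9 TPM, and *DLL1*, *DLL4* and *HEY2* lie under 5 TPM.

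Of 69 other genes of the pathway, 59 symbols were named in the files and matched 60 genes, because *HES6* is listed under a pair of identifiers. In the hair cells 11 of the 60 genes were detected in the type I cell and 11 in the type II cell, or 18.3% in each, against 7.77% and 7.91% of all genes, and 10 in both. The whole crista had reads of 59, against 59.8% of all genes, with a median of 21.0 TPM over the 60 genes. A fairer measure for the cells is thus the share among genes read in the organ. No read in either cell was found for 48 of the 60, among them *NEURL4*, which had none in the organ either. The share to set beside this is 85.8% of all genes read in the whole crista. For all genes with at least 10 TPM there it was 77.6%. The 48 were counted whatever their level in the organ, so this second share is not matched to them. At least 10 TPM was reached by 43 of the 60. None of the 6 genes listed under ligand ubiquitination, the 8 under receptor cleavage and the 9 under the nuclear complex had a read in a hair cell. In the organ 4, 5 and 5 of them reached at least 10 TPM. Having no read in either cell was the more common state of genes of the organ, as the 85.8% and 77.6% show. Reads were found instead among ligand-like, glycosylation and corepressor genes, for 1 target gene and for 1 negative regulator.

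*EOGT*, whose enzyme adds N-acetylglucosamine to the EGF repeats of Notch receptors and other proteins, stood beside *JAG2* in both cells. It had 15378 reads in the type I cell (95% interval 15136 to 15623), 21183 in the type II cell (20899 to 21470) and 2568 in the whole crista (2470 to 2669). In TPM this is 514, 661 and 23.5, so that the cells were 21.9-fold (counting interval 21.0 to 22.8) and 28.1-fold (27.0 to 29.3) above the organ, and in CPM 37.5-fold and 46.6-fold. *GXYLT2*, which adds xylose to such repeats, had 5 and 3 reads in the cells and 36.8 TPM in the organ. The 6 remaining glycosylation genes had no read in the hair cells. In the organ the highest of the 8 were *POFUT1*, which adds the fucose that fringe enzymes extend, at 116 TPM, *XXYLT1* at 100.3 TPM and *POGLUT1* at 41.3 TPM.

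Among ligand-like genes, *DLK2*, which encodes a membrane protein related to Delta, had 1594 reads in the type I cell, 1614 in the type II cell and 2135 in the whole crista. The levels were 62.6, 66.4 and 18.2 TPM, and the type I to type II ratio was 0.943 (counting interval 0.879 to 1.01). In CPM the ratio turned to 1.09 (1.02 to 1.17), so that no order of the hair cells can be given. *DNER*, a relative of the Delta ligands, had 22 reads (13.8 to 33.3) in the type I cell against 14 (7.65 to 23.5) in the type II cell. This is below 1 TPM in both, and *DNER* reached 52.5 TPM in the organ. *DLK1* had no read in the cells and 17.6 TPM in the organ.

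*HES4*, a repressor of the HES family that carries the synonym c-hairy1A in the RefSeq annotation, was the target gene of the list with reads in the hair cells. It had 926 reads in the type I cell (867 to 988), 929 in the type II cell (870 to 991) and 976 in the whole crista (916 to 1039). At 92.98, 96.7 and 21.1 TPM, the cells stood 4.41-fold (counting interval 4.03 to 4.83) and 4.58-fold (4.19 to 5.02) above the organ, and type I stood to type II as 0.962 (0.877 to 1.05). In CPM this ratio too turned, to 1.10 (1.01 to 1.21). The other targets of the pathway list had no read in either cell, while *HES5A*, outside the list, had the 2 reads given above. In the organ *HEYL* had 69.4 TPM, *HES1* 66.6 TPM and the higher of the *HES6* entries 27.3 TPM. *HES6* stands among the targets by the list alone, and whether it responds to Notch was not examined here.

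Of 12 corepressor genes, 6 were detected in the type I cell and 5 in the type II cell, against 7.77% and 7.91% of all genes. In the organ 11 of the 12 reached at least 10 TPM. No read in either cell was found for 6 of the 12, among them *TLE3*, which had 0.967 TPM in the organ. The same held for 85.8% of all genes read in the organ and 77.6% of those with at least 10 TPM there. The list was chosen with earlier results of these data known, so these counts are not read as a result about the role. *CTBP1* was the most abundant, at 192 TPM in the type I cell, 162 TPM in the type II cell and 414 TPM in the organ. The histone deacetylase genes were far lower in the cells, *HDAC2* at 15.1 and 11.4 TPM against 142 TPM and *HDAC1* at 4.61 and 3.41 TPM against 67.7 TPM, and the histone demethylase gene *KDM5A* had 11.8, 7.97 and 16.9 TPM. *CTBP2* had 2 reads in the type I cell and 0 in the type II cell, and 102.7 TPM in the organ. By CPM the type I cell to organ ratio was 0.7998 for *CTBP1* and 0.147 for *HDAC1*, against 0.463 and 0.0680 by TPM. All of these serve many pathways, so that their reads are not particular to Notch.

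Genes of the core machinery had reads in the organ and none in the cells, like the 85.8% of genes given above. Of the receptor-cutting genes, *ADAM10* had 232 TPM in the whole crista and *PSEN2* 53.7 TPM. *RBPJ*, the DNA-binding partner of the receptor fragment, had 6293 reads there, or 77.5 TPM. Next among the genes listed under the nuclear complex were *SNW1* at 53.8 TPM and *RBPJL* at 27.4 TPM. Whether *RBPJL* takes part in Notch signalling was not examined here. Of the genes that act on the ligand, *EPN2* had 70.0 TPM, *MIB1* 47.5 TPM and *NEURL1* 22.95 TPM, and *NEURL4* had no read in any library. Among negative regulators the organ had 17.6 TPM of *ITCH*, 16.8 TPM of *DTX2* and 12.1 TPM of *NUMB*, and a single read of *DTX2* in the type II cell was the only one in the cells.

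**Figure D5:**
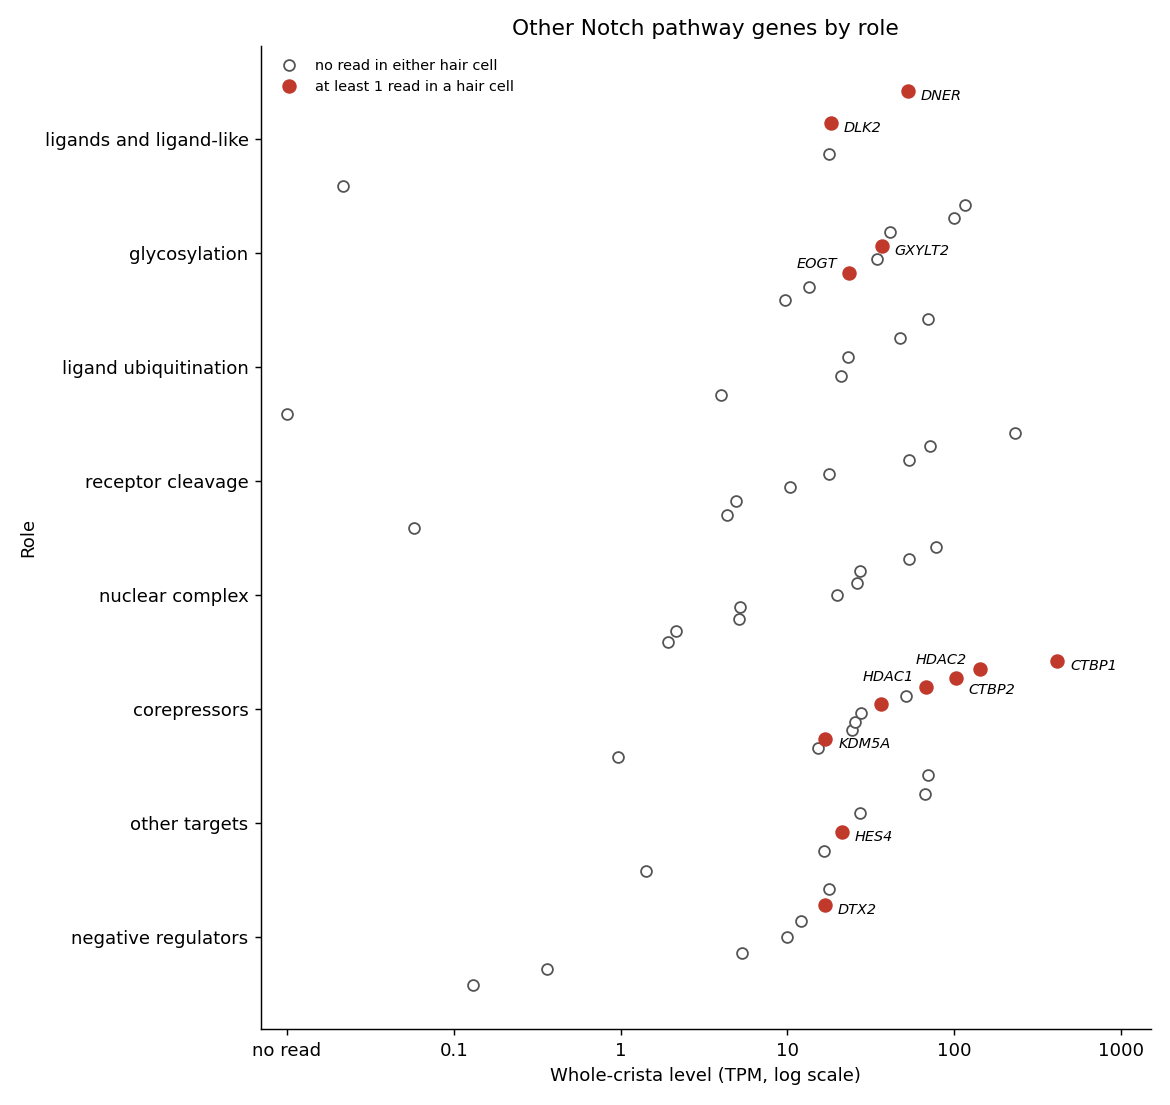
Whole-crista level in TPM (log scale) of 60 further Notch pathway genes by role; filled points, most of them named, had at least 1 read in a hair cell and open points had none, and points are spread vertically within a role for visibility. Receptor cleavage, nuclear complex and ligand ubiquitination hold open points only, while 6 of the 12 corepressor genes are filled. Of all genes 7.77% were detected in the type I cell and 7.91% in the type II cell.

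Genes whose levels over the 3 libraries were nearest to those of *JAG2* on the scale of log2(TPM + 0.1) were *NUBPL* (distance 0.23), *SHISA9* (0.24) and *SENP6* (0.30). *NUBPL* had 555 TPM in the type I cell, 625 TPM in the type II cell and 36.9 TPM in the whole crista. For *LFNG* they were *ALG2* (0.08), *MKLN1* (0.16) and *PTBP1* (0.21), each with 1 to 3 reads in the type I cell and none in the type II cell. With 3 libraries, nearness of this kind is shared by many genes.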

How the data were processed

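Single-cell cDNA was amplified by template switching with a SMART-Seq kit, tagmented and sequenced as single reads. Whole-crista cDNA was amplified with another SMART-Seq kit, fragmented and indexed with a Nextera XT kit and sequenced as read pairs. Both used the same Illumina sequencer model. For every library the authors deposited estimated counts of reads per Ensembl gene, not normalized between libraries, and TPM, scaled by effective length within the library. The paper names the Illumina DRAGEN RNA pipeline and GRCg7b for the organ. The submitters' processing notes give bcl2fastq 2.20.0.422, DRAGEN, GRCg7b and galGal4 without roles. The title of the organ sample gives 500 ng of RNA, whereas the library name and the paper give pg. The deposited gene-name tables, with a length per gene, are identical in the 3 libraries.

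Intervals of counts were exact Poisson, ratio intervals exact for 2 Poisson counts, both at 95%. A count of 0 was bounded by a chosen floor of 3 reads. The exact 95% interval of a count of 0 ends higher, at 3.69 reads, and the fold bounds would be lower at that limit. Amplified reads are not independent molecules, so intervals cover counting error only. The members, pathway and marker lists were chosen with earlier results of these data known. Named were all members, pathway genes with a read in a hair cell and the 3 highest per role in the organ, except items that are not reported here. Positions came from RefSeq by symbol (13902 matched). Alternatives were other detection thresholds, CPM scalings, floors and length corrections. Sequences were not analysed here. Tables were handled with pandas 2.3.3 and numpy 2.4.6 under Python 3.11.15, intervals came from scipy 1.17.1, plots from matplotlib 3.10.9, and the calculations were tested on simulated data.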

Additional observations from a re-analysis of the deposited data

How the results depend on the processing

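No paired analysis was possible because each group holds 1 library, and none could be left out. In the type I cell 1 member stayed detected at thresholds of 3, 5 or 10 reads and of 1 or 10 TPM, *LFNG* being lost. At 10 TPM, 7 (type I) and 6 (type II) other pathway genes were detected. Counting *HES5A* and *HES5B*, an alternative chosen after seeing the data, gave 3 detected genes in the type I, 1 in the type II cell and 11 in the organ. The summed level of the members in CPM (reads scaled to the library total alone) was 1549 (type I), 2021 (type II) and 812 (whole crista), without mitochondrial genes 1639, 2183 and 819, and in TPM within protein-coding genes 666, 859 and 309. The type I to type II ratio of *JAG2* was 0.766 in CPM and 0.751 without mitochondrial genes. Its ratio to the whole crista was 16.4 and 17.2 in the type I, and 21.4 and 22.9 in the type II cell. These moves follow from the scaling and turned no direction of a member. For *DLK2* and *HES4*, compared in CPM after seeing the data, the type I to type II ratio turned from below 1 to above 1. In CPM 2 of the 9 members kept their place in the organ, *JAG1* and *HEY2*. By reads per kilobase of the deposited length 7 did, *HEY1* and *NOTCH1* changing places. All 15 lower bounds stayed above 1 in CPM, the lowest being 11.8 without mitochondrial genes.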

Other observations

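The deposited length of a gene is weighted by the transcripts assigned to it and so differs between libraries where the mix of transcripts does. For *JAG2* it was 3989 bases in both hair cells and 4309 in the whole crista, while the longest length listed for the gene is 5068 bases. The reads of the hair cells were thus assigned to a shorter average transcript than those of the organ. Assignments by transcript were not analysed here.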
